A study of Mus musculus with 6 samples.

Results

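The unfolded protein response and the integrated stress response were followed here through 35 genes, chosen by name as sensors, chaperones, degradation factors and stress targets, of 55802 gene symbols counted in mouse liver. All 35 were found in the count files under these symbols, each on 1 row, and all 35 had enough counts to be tested. The samples were livers of male C57BL/6 mice reared over 71 weeks, 3 from mice on chow containing polystyrene microplastic (PS-MP, small particles of polystyrene) and 3 from mice on normal chow (control). Polyadenylated RNA was sequenced with a directional kit, 1 library for each liver sample. The series asks how prolonged exposure to PS-MP affects hepatic gene expression. Particle size, dose and the start of exposure were not given in the sources used here. Nothing in the labels ties the replicates to separate mice, so a p-value here reflects library-to-library spread, which may be technical.

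The endoplasmic reticulum (ER) folds the proteins that a cell secretes, and the hepatocyte, which makes most plasma proteins, depends heavily on it. When unfolded proteins gather there, membrane sensors set off the unfolded protein response. IRE1 (gene Ern1) splices the mRNA of the transcription factor XBP1, ATF6 is cut in the Golgi to release its transcription factor part, and both raise the genes of chaperones and of ER-associated degradation, which returns misfolded proteins to the cytosol for destruction. The sensor PERK (gene Eif2ak3) phosphorylates the initiation factor eIF2alpha, which slows translation in general and favours that of ATF4. Other kinases phosphorylate the same factor under amino acid shortage, viral RNA or haem deficiency, and the shared output through ATF4 is called the integrated stress response. Gene-level read counts show neither the splicing of Xbp1, nor the cleavage of ATF6, nor the translation of Atf4, so the sensor and factor genes are read here by their mRNA level alone.

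The sequences that carry these responses stand in the promoters. RefSeq windows of 300 bases, from 250 before to 50 after the annotated start site, were matched by symbol for 30 of the 35 genes (assembly GRCm38.p6, an earlier build than that named for the counts; the others are Atf6, Derl1, Hyou1, Manf and Ppp1r15b). Both strands were searched. The ER stress element (ERSE), which ATF6 and XBP1 use together with NF-Y, was searched as CCAAT, 9 bases of any kind and CCACG, and ERSE-II as ATTGG, 1 base of any kind and CCACG. The C/EBP-ATF response element (CARE), which ATF4 uses, was searched as TGATGNAAN. The XBP1 element UPRE, searched as TGACGTGG, was in 0 of the 30 genes and in 0.714% of all genes with a window. A gene with several windows, such as Atf5, counted as holding an element if any of its windows did. ERSE was in 9 of the 30 genes (30%), where 37 of all 27025 genes with a window held it (0.137%). By role it was in 7 of 12 chaperone and foldase genes, 2 of 6 degradation genes and 0 of 8 genes of the ATF4 arm. The genes were chosen by name as parts of these responses, so these shares describe the choice and were not tested. The 10 ERSE copies are shown because they are what most of the chaperone genes share, each with 12 bases of flank, in the direction of the gene and with the element in capitals; those whose capitals begin with CGTGG lie on the opposite strand.
Hspa5: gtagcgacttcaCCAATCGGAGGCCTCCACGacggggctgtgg
Hsp90b1: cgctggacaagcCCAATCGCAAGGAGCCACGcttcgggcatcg
Hsp90b1: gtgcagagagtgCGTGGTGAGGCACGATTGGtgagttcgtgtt
Calr: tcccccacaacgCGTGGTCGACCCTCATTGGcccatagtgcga
Canx: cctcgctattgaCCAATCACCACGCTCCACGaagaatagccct
Pdia6: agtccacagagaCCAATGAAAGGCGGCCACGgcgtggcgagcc
Dnajc3: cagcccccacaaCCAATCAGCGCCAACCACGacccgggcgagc
Creld2: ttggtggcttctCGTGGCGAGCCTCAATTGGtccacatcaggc
Syvn1: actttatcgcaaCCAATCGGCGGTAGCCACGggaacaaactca
Derl3: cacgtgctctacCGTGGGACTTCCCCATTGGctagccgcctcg

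ERSE-II was in Dnajb11 and Herpud1 (6.67% of the 30 genes, 0.0444% of all genes), where the capitals again mark the element.
Dnajb11: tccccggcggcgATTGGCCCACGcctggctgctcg
Herpud1: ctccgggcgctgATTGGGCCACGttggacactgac

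CARE was in Asns, Chac1, Trib3 and Herpud1 (13.3% of the 30 genes, 4.5% of all genes), which places 3 of the 4 copies in the ATF4 arm. The copy in Asns reads in the direction of the gene, and those of the 3 other genes lie on the opposite strand.
Herpud1: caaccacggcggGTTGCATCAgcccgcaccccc
Asns: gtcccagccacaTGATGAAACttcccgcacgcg
Chac1: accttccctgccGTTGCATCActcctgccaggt
Trib3: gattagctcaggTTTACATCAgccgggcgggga

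Herpud1 alone held elements of both kinds. Its window (chr8:94386179-94386478, plus strand, GRCm38.p6) is shown beside that of Hspa5 (chr2:34771840-34772139, plus strand), the main ER chaperone, and that of Chac1 (chr2:119350992-119351291, plus strand), an ATF4 target, because control replicate 2 was the highest library for Hspa5 and the lowest for Herpud1 and Chac1. Capitals mark ERSE in Hspa5, CARE and then ERSE-II in Herpud1, and CARE in Chac1. A match is a description of the letters and not a shown binding site.
Hspa5: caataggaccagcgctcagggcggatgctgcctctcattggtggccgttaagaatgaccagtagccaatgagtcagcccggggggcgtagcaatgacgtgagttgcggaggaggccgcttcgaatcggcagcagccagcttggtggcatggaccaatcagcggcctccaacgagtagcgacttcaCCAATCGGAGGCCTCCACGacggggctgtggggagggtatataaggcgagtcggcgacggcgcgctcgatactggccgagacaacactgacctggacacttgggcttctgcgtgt
Herpud1: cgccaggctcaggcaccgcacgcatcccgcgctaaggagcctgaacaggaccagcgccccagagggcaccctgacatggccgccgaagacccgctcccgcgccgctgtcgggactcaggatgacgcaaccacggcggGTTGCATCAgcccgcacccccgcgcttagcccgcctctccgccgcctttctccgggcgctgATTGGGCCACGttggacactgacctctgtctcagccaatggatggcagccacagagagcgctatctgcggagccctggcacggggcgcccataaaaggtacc
Chac1: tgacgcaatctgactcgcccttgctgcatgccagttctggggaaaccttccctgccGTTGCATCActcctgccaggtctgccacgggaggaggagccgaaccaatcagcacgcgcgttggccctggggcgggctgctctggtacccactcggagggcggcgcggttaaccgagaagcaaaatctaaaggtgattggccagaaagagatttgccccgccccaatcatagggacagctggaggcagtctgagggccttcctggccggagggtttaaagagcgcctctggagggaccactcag

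**Figure D1:**
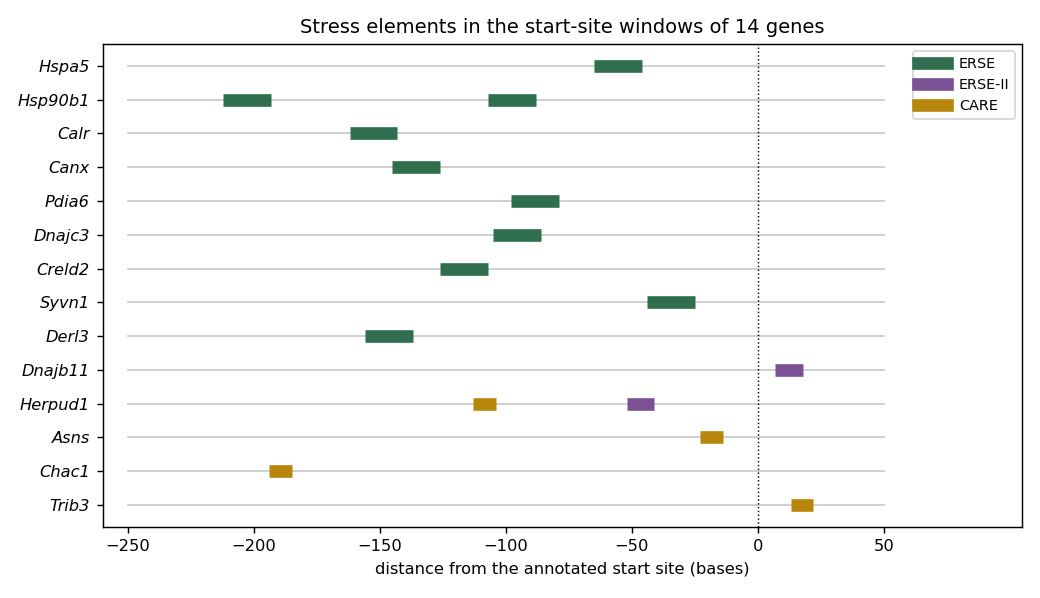
Positions of the 16 elements found in the windows of 14 genes, as distance in bases from the annotated start site (dotted line). ERSE copies lie between -212 and -26, whereas the ERSE-II of Dnajb11 and the CARE of Trib3 lie just after the start.

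No gene of the 35 passed the test for a difference between the diets. Levels are given as CPM, read counts divided by TMM-scaled library size, and the quasi-likelihood test of edgeR was run over 17662 genes, of which 0.0113% passed an adjusted p of 0.05 (1.06% with DESeq2). Of the 35 genes, 0 passed (smallest edgeR adjusted p = 0.923), and 0 had an unadjusted p under 0.05, where 5.38% of all genes did. DESeq2 and limma-voom also passed 0 of the 35, and each had 0 of them at an unadjusted p under 0.05, where 6.27% of all genes were under it with DESeq2. The log2 fold changes, PS-MP over control, ran from -0.34 to 0.87 with a median of -0.06, where all genes had a median of 0.017. Their 95% intervals lay inside a 2-fold change in either direction for 31 of 35 genes (88.6%), against 53.6% of all genes tested. The 4 others, Derl3, Ddit3, Trib3 and Chac1, had intervals that reach past 2-fold. In bulk tissue, fewer cells of a type and less RNA per cell cannot be told apart.

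**Figure D2:**
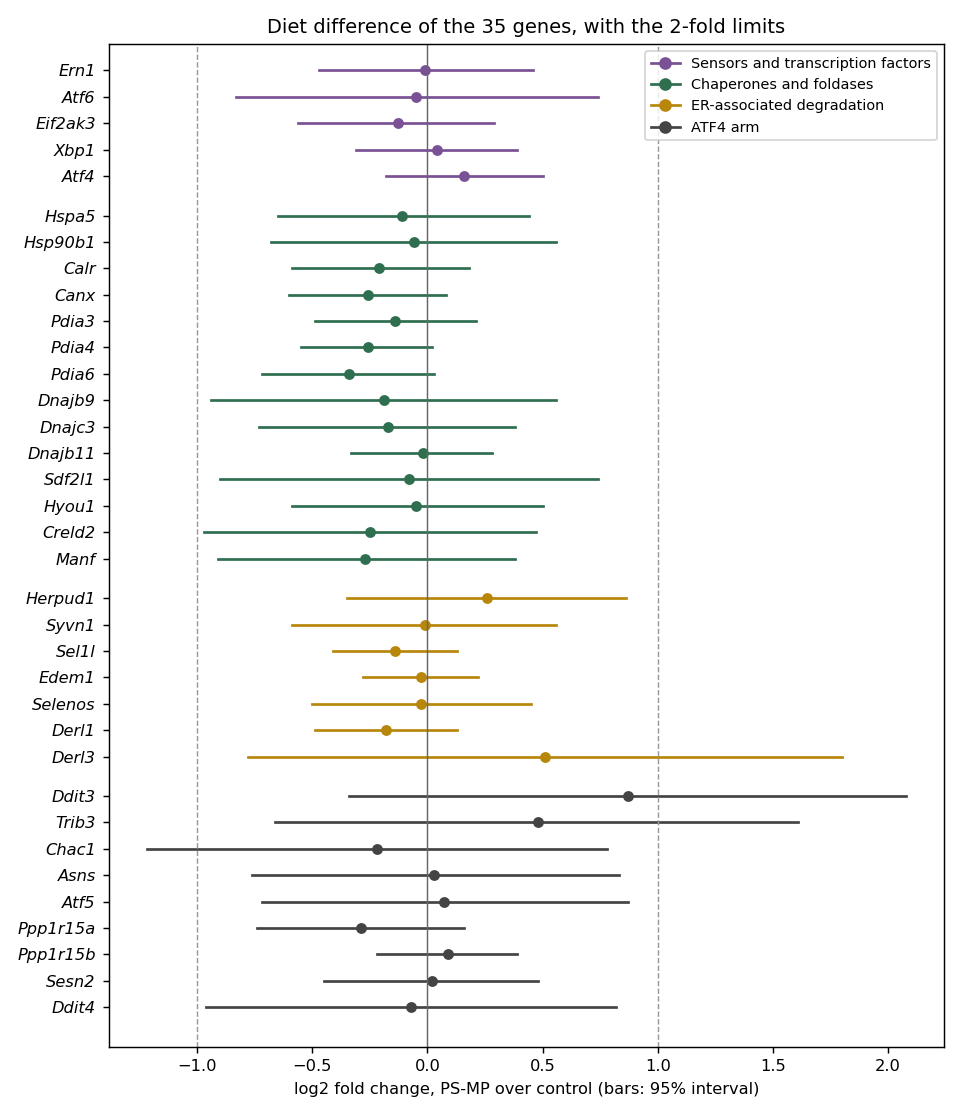
Log2 fold change of each of the 35 genes, PS-MP over control, with its 95% interval from edgeR; dashed lines mark 2-fold. Every interval holds 0, and those of Derl3, Ddit3, Trib3 and Chac1 cross a dashed line.

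The libraries were deep and of liver. They held 79081889, 79317092 and 79691824 counts with PS-MP and 75897165, 68357478 and 112566641 in control. The 35 genes took 0.334% to 0.413% of the counts with PS-MP and 0.329% to 0.348% in control. All 8 hepatocyte markers were high, with summed levels of 71479 to 91096 CPM with PS-MP and 64480 to 83167 CPM in control. Of 7 markers of pancreatic acinar cells, a tissue rich in ER, 5 were at 0 in all libraries and the sum stayed at 0.312 CPM or less. The part of other cell types in the levels below was not tested. The 6 Kupffer cell markers summed to 116 to 140 CPM with PS-MP and 79.9 to 102 CPM in control, which did not overlap. The single markers differed. Clec4f overlapped, with 24.2, 35.2 and 41 CPM with PS-MP, against 34.3, 25 and 32.5 CPM in control, and so did Cd5l. Vsig4, Timd4, Marco and Adgre1 were higher with PS-MP without overlap, as were 6.24% of all genes tested. The 5 adipocyte markers summed to 8.55 to 26.5 CPM with PS-MP and 6.39 to 16.7 CPM in control, mostly from Cfd and Fabp4. Plin1 was at 0 in 5 libraries and had 0.479 CPM in PS-MP replicate 3. Lep was found in that library only (0.117 CPM). Adipoq had 0.234 CPM there, 0.0189 CPM in control replicate 3 and none elsewhere. Ribosomal RNA (Rn18s-rs5) took 0.387% to 1.14% of counts with PS-MP and 2.92%, 11.2% and 1.15% in control replicates 1 to 3.

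The 5 sensor and transcription factor genes had a median log2 fold change of -0.006. In what follows values are given for replicates 1, 2 and 3. Ern1, the IRE1 gene, had 30.3, 26.5 and 40.9 CPM with PS-MP, against 34.6, 35 and 28.5 CPM in control. The PERK gene Eif2ak3 had 7.54, 9.07 and 9.93 CPM with PS-MP, against 8.54, 10.1 and 10.5 CPM in control. In both genes the diets overlapped, and the log2 fold changes were -0.01 (95% interval -0.47 to 0.46) and -0.13 (-0.56 to 0.29). Xbp1, whose spliced mRNA encodes the active factor, had 61.4, 63.3 and 71.7 CPM with PS-MP, against 60.6, 56.3 and 73.9 CPM in control. Replicate 3 was the highest of its diet for Xbp1 in both diets. Atf4 had 77.1, 68.4 and 90.1 CPM with PS-MP, against 66.2, 76.2 and 68.3 CPM in control (log2 fold change 0.16, interval -0.18 to 0.50).

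Atf6 was the sensor gene with the widest spread. Its levels were 31.4, 61.7 and 51.9 CPM with PS-MP, against 58.2, 59.8 and 31.7 CPM in control. One library of each diet stood near 31 CPM and the other 4 lay between 51.9 and 61.7 CPM, so the 1.96-fold range lay within each diet (log2 fold change -0.05, interval -0.83 to 0.74). The 5 sensor and factor genes together had a mean log2 CPM of 5.20 ± 0.20 with PS-MP and 5.20 ± 0.09 in control (SD, n = 3 each), and 5 of 5 intervals lay inside 2-fold.

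The chaperones and foldases all had log2 fold changes below zero, by small amounts. The 14 values ran from -0.34 for Pdia6 to -0.02 for Dnajb11 with a median of -0.183, where 47.2% of all genes tested were below zero. The 14 intervals all held 0 and all lay inside 2-fold. The direction did not hold under every setting. With library size as the only scaling, which moved the median of all genes to 0.232, 5 of 14 were below zero and the median was 0.0471. Without control replicate 2, 8 of 14 were below zero (median -0.0255), with 9 of 14 when PS-MP replicate 1 was left out (median -0.0438), and 11 of 14 when PS-MP replicate 2 was. All 14 were below zero without PS-MP replicate 3, where the median was -0.332, and without control replicate 1 or 3.

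Among the general chaperones, Hspa5, the gene of the HSP70 of the ER (BiP), had 279, 305 and 431 CPM with PS-MP, against 295, 446 and 353 CPM in control. Its groups overlapped almost fully (log2 fold change -0.11, SE 0.23). Hsp90b1, the HSP90 of the ER (GRP94), had 313, 442 and 342 CPM with PS-MP, against 264, 497 and 382 CPM in control. The lowest and the highest library of Hsp90b1 were both controls (log2 fold change -0.06, SE 0.26). Hyou1, a large HSP70 relative that releases nucleotide from BiP, had 52.2, 47.8 and 83.1 CPM with PS-MP, against 66.5, 66.3 and 56.4 CPM in control. Here PS-MP replicate 3 stood above, and the other PS-MP libraries below, all controls.

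The lectin chaperones hold glycoproteins during folding. Calr, calreticulin, had 367, 285 and 406 CPM with PS-MP, against 397, 413 and 410 CPM in control. Control libraries were tight for Calr, and PS-MP replicate 3 reached into their range (log2 fold change -0.21, SE 0.16). Canx, calnexin, had 192, 210 and 190 CPM with PS-MP, against 207, 275 and 227 CPM in control. Only PS-MP replicate 2 and control replicate 1 overlapped, and Canx did not pass (log2 fold change -0.26, SE 0.14, edgeR adjusted p = 0.955). Pdia3, the disulfide isomerase that works with both lectins, had 181, 210 and 206 CPM with PS-MP, against 187, 246 and 224 CPM in control (log2 fold change -0.14).

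Pdia4 and Pdia6, disulfide isomerases of the ER, were the 2 of 35 genes whose diets did not overlap, both lower with PS-MP; of all genes tested, 4.99% had this pattern, and 6.24% the opposite one, which 0 of the 35 showed. Pdia4 had 104, 98.3 and 119 CPM with PS-MP, against 122, 133 and 130 CPM in control. It averaged 107 ± 10.5 CPM with PS-MP and 128 ± 5.45 CPM in control (SD, n = 3 each; log2 fold change -0.26, SE 0.12, edgeR unadjusted p = 0.0671, adjusted p = 0.923). Pdia6 had 72.1, 75.1 and 95.4 CPM with PS-MP, against 96, 115 and 96.4 CPM in control, so the gap between PS-MP replicate 3 and control replicate 1 was very small. It averaged 80.9 ± 12.7 CPM with PS-MP and 103 ± 11 CPM in control (SD, n = 3 each; log2 fold change -0.34, SE 0.16, edgeR unadjusted p = 0.0661, adjusted p = 0.923). The counts of genes without overlap moved with single libraries. With PS-MP replicate 3 left out, 11 of the 35 were lower and 1 was higher without overlap (11.3% and 12.4% of all genes). In that fit 4 genes, Pdia4, Pdia6, Creld2 and Syvn1, were lower and Ddit3 was higher at an unadjusted p under 0.05 (3.83% and 2.96% of all genes), and 0 passed over all genes (smallest edgeR adjusted p = 0.664). Without control replicate 1, 6 were lower and 1 was higher without overlap (8.42% and 11.1% of all genes); without control replicate 2, 4 were lower and 0 higher (14.2% and 15%); without control replicate 3, 4 were lower and 1 was higher (7.95% and 9.34%). With PS-MP replicate 1 left out, 2 were lower and 1 was higher (8% and 9.89%), and with PS-MP replicate 2 left out 2 and 1 (9.04% and 10.9%).

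The co-chaperones and secreted folding factors spread more widely. Dnajb9 (ERdj4), a J protein of BiP, had 26.2, 47.2 and 40.9 CPM with PS-MP, against 29.7, 59.7 and 41.2 CPM in control. Dnajc3 (p58IPK), a J protein that also inhibits eIF2alpha kinases, had 101, 137 and 126 CPM with PS-MP, against 99.4, 176 and 136 CPM in control. In both genes replicate 1 was the low library and replicate 2 the high one, in each diet. Dnajb11 (ERdj3) was much steadier, at 47.4, 45.2 and 52.9 CPM with PS-MP, against 45.4, 54.3 and 48.2 CPM in control.

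Sdf2l1, a partner of the J proteins, had 6.77, 7.77 and 13.9 CPM with PS-MP, against 8.24, 13.6 and 8.29 CPM in control. Creld2 had 10.1, 13 and 21.3 CPM with PS-MP, against 15.5, 21.5 and 15.6 CPM in control. Manf, a stress factor of the ER that can be secreted, had 32.8, 36.6 and 54.9 CPM with PS-MP, against 38.2, 64.7 and 46.8 CPM in control. In all 3 genes PS-MP replicate 3 and control replicate 2 were the 2 highest of the 6 libraries, and PS-MP replicate 1 was the lowest. Sdf2l1 ranged 2.06-fold, Creld2 2.14-fold and Manf 1.97-fold over the libraries, against log2 fold changes between diets of -0.08, -0.25 and -0.27.

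The chaperone genes shared an order of the libraries. Control replicate 2 was the highest control for 13 of 14 chaperone genes, against 39.7% of all genes tested, and Hyou1 was the exception by a narrow margin. PS-MP replicate 1 was the lowest PS-MP library for 9 of 14, and PS-MP replicate 3 the highest for 9 of 14, against 31.4% of all genes for each. Control replicate 2 also had the highest share of ribosomal RNA, 11.2%. With Rn18s-rs5 removed before scaling, the median of the chaperone genes was -0.183. TMM scaling hardly responds to a single row, so this is no check of that library. Whether the quality of that library takes part in its high chaperone levels was not tested. Chaperone genes with and without ERSE in the window had overlapping ranges of log2 fold change. The 7 with ERSE ran from -0.34 (Pdia6) to -0.06 (Hsp90b1). The 4 with none of the elements, Pdia3, Pdia4, Dnajb9 and Sdf2l1, ran from -0.26 (Pdia4) to -0.08 (Sdf2l1). Dnajb11, which held ERSE-II but no ERSE, had -0.02.

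**Figure D3:**
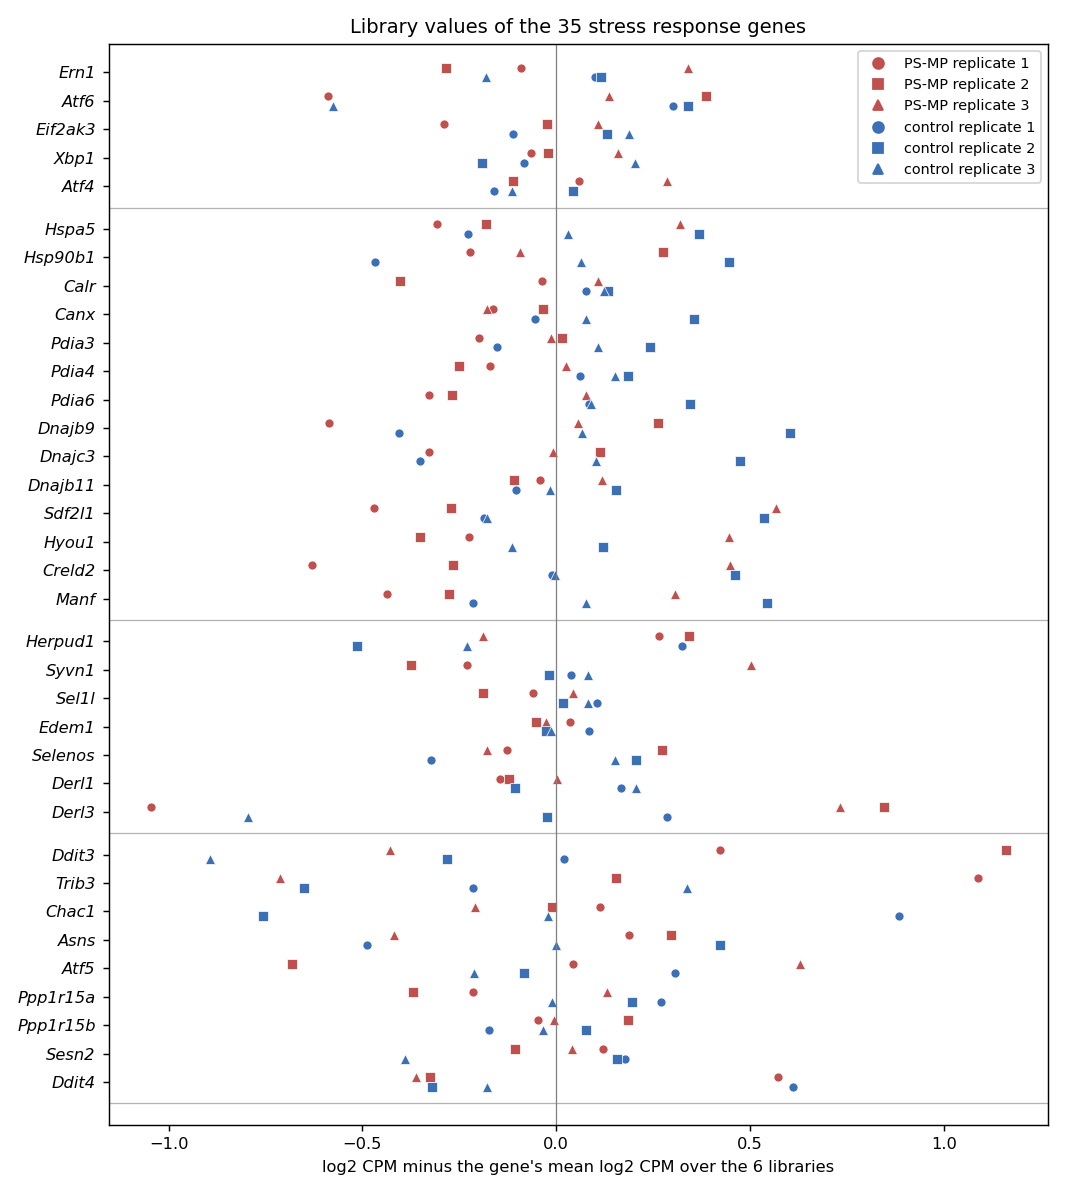
Log2 CPM of each gene in each library minus the mean of the gene over the 6 libraries, by role; colour is the diet and shape the replicate. Control replicate 2 (blue squares) stands to the right of the other controls for 13 of 14 chaperone genes, and PS-MP replicate 3 (red triangles) to the right of the other PS-MP libraries for 9 of 14.

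The genes of ER-associated degradation had 5 of 7 log2 fold changes below zero, with a median of -0.027. Sel1l and Syvn1 encode the core of the ligase complex that passes misfolded proteins out of the ER. Sel1l had 107, 97.8 and 115 CPM with PS-MP, against 120, 113 and 118 CPM in control (log2 fold change -0.14). Syvn1, the ubiquitin ligase HRD1, had 49.9, 45.1 and 82.9 CPM with PS-MP, against 60.1, 57.7 and 61.9 CPM in control. As for Hyou1, PS-MP replicate 3 stood above and the other PS-MP libraries below all controls. Edem1, a lectin that marks misfolded glycoproteins for removal, was the steadiest of the 35 genes, with 118, 111 and 113 CPM with PS-MP, against 122, 113 and 114 CPM in control (1.1-fold between the highest and the lowest library).

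Derl1, a channel subunit of the same route, had 88.6, 90 and 98.1 CPM with PS-MP, against 110, 91 and 113 CPM in control (log2 fold change -0.18, SE 0.13). Selenos, a selenoprotein that links this channel to the ATPase VCP, had 40.4, 53.3 and 39 CPM with PS-MP, against 35.3, 50.9 and 49 CPM in control. Neither separated the diets. Herpud1, a membrane scaffold of the ligase complex and the gene with both kinds of element, had 237, 250 and 173 CPM with PS-MP, against 247, 138 and 168 CPM in control. Its lowest library, control replicate 2, was the highest library of Hspa5 (log2 fold change 0.26, SE 0.25). Without control replicate 1, all PS-MP libraries of Herpud1 lay above the remaining controls, with a log2 fold change of 0.526 and an edgeR adjusted p of 0.998.

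Derl3, the Derlin of secretory cells, was near the lower end of detection, with 0.461, 1.71 and 1.58 CPM with PS-MP (38, 151 and 135 counts), against 1.16, 0.936 and 0.548 CPM in control (84, 57 and 58 counts). PS-MP libraries lay both below and above all controls, and the log2 fold change was 0.51 (interval -0.78 to 1.80). Plasma cells express Derl3, and their 6 markers summed to 86.4, 210 and 50 CPM with PS-MP and to 33.7, 171 and 14.6 CPM in control; Tnfrsf17 was at 0 in 3 libraries. Igkc, an immunoglobulin gene, made up most of that sum in PS-MP libraries, with 76.4, 127 and 37 CPM with PS-MP, against 0.138, 124 and 0.113 CPM in control. Mzb1, a folding factor of plasma cells, had 0.461, 10.6 and 0.923 CPM with PS-MP, against 2.42, 3.53 and 0.586 CPM in control. PS-MP replicate 2 was the highest library and PS-MP replicate 1 the lowest for Derl3, Mzb1 and the marker Jchain. The other markers did not all share this order. Igkc and the marker Pou2af1 were lowest in control replicate 3. The marker Ighm had 1.65, 1.29 and 2.31 CPM with PS-MP, against 0.881, 1.12 and 0.889 CPM in control. The part of plasma cells in the level of Derl3 was not tested.

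The ATF4 arm, 8 genes that ATF4 raises or acts with and the phosphatase subunit gene Ppp1r15b, had 6 of 9 log2 fold changes above zero and a median of 0.031. The median was 0.242 when control replicate 1 was left out, -0.0436 when PS-MP replicate 1 was and -0.0291 when control replicate 3 was. Ddit3, which encodes the death-promoting factor CHOP, had 0.401, 0.668 and 0.222 CPM with PS-MP (33, 59 and 19 counts), against 0.303, 0.246 and 0.161 CPM in control (22, 15 and 17 counts). PS-MP replicates 1 and 2 stood above all controls and replicate 3 among them (log2 fold change 0.87, SE 0.51, interval -0.34 to 2.08, edgeR adjusted p = 0.96). In GENCODE M21 its exons overlap those of the methionyl-tRNA synthetase gene (Mars1 in the files) on the opposite strand. Mars1 had 45.3, 36.4 and 26 CPM with PS-MP, against 33, 9.9 and 14.7 CPM in control. Because the strand setting of the counting is not given, the counts may not separate reads of the 2 genes where their exons overlap.

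Trib3, a pseudokinase that CHOP and ATF4 raise, ranged 3.49-fold over the libraries, with 29.6, 15.5 and 8.5 CPM with PS-MP, against 12, 8.87 and 17.6 CPM in control. PS-MP libraries held both the highest and the lowest value. Its log2 fold change was 0.48 (SE 0.47, interval -0.66 to 1.61) with all libraries and -0.102 without PS-MP replicate 1. Chac1, which degrades glutathione, had 1.8, 1.65 and 1.44 CPM with PS-MP, against 3.07, 0.985 and 1.64 CPM in control. PS-MP libraries lay close together within the control range, and the log2 fold change of -0.22 was 0.309 without control replicate 1. Asns, asparagine synthetase, had 1.3, 1.4 and 0.853 CPM with PS-MP, against 0.813, 1.53 and 1.14 CPM in control (log2 fold change 0.03, interval -0.76 to 0.83).

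Atf5, a factor related to ATF4 and abundant in liver, had 443, 268 and 665 CPM with PS-MP, against 532, 406 and 371 CPM in control. Its PS-MP libraries spread past the controls on both sides (log2 fold change 0.07, SE 0.33). Ppp1r15a (GADD34) and Ppp1r15b (CReP) encode the inducible and the constitutive subunit that direct a phosphatase to eIF2alpha. Ppp1r15a had 8.57, 7.7 and 10.9 CPM with PS-MP, against 12, 11.4 and 9.87 CPM in control (log2 fold change -0.29, SE 0.19). Ppp1r15b had 67.8, 79.6 and 69.8 CPM with PS-MP, against 62.1, 73.9 and 68.4 CPM in control (log2 fold change 0.09, SE 0.13). Both overlapped between the diets.

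Sesn2 and Ddit4 restrain the growth kinase mTORC1. Sesn2 had 15.1, 12.9 and 14.3 CPM with PS-MP, against 15.7, 15.5 and 10.6 CPM in control. Ddit4 had 6.69, 3.59 and 3.5 CPM with PS-MP, against 6.87, 3.6 and 3.97 CPM in control. Replicate 1 of each diet stood well above the other 4 libraries for Ddit4, whose log2 fold change was -0.07 (interval -0.96 to 0.82). In the earlier annotation, Atf5, Manf, Pdia3, Pdia6, Ppp1r15a and Syvn1 also overlap exons of a protein-coding gene on the opposite strand, which the counts may not separate. For Manf that gene is Dcaf1, which had 4.89, 3.79 and 6.95 CPM with PS-MP, against 1.46, 1.45 and 1.09 CPM in control (edgeR adjusted p = 0.512). Manf also overlaps exons of the protein-coding gene Rbm15b on the same strand, where a strand setting alone would not separate the reads. The diets overlapped for Rbm15b, with a log2 fold change of 0.08.

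Set side by side, the chaperone genes and the ATF4 arm had different orders of the libraries. The mean log2 CPM of the 14 chaperone and foldase genes was 6.19, 6.36 and 6.64 with PS-MP, against 6.36, 6.84 and 6.53 in control. That of the 9 genes of the ATF4 arm was 3.29, 3.06 and 2.89 with PS-MP, against 3.19, 2.90 and 2.89 in control. Within each diet the library with the lowest chaperone level, replicate 1, had the highest level of the ATF4 arm. The chaperone level minus that of the ATF4 arm was 2.91, 3.30 and 3.75 with PS-MP, against 3.17, 3.94 and 3.64 in control. It averaged 3.32 ± 0.42 with PS-MP and 3.58 ± 0.39 in control (SD, n = 3 each), a difference of -0.26 that is smaller than either SD. Leaving out PS-MP replicate 1 gave a difference of -0.057, PS-MP replicate 3 one of -0.479, control replicate 1 one of -0.472 and control replicate 2 one of -0.0846. It was -0.185 with a filter of 1 CPM in 3 libraries, and it was below zero in each of the other settings tried. The scaling of a library nearly cancels in this difference, so the settings with other scalings could hardly move it. These are means over genes with different numbers of counts, and no test was made on them.

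**Figure D4:**
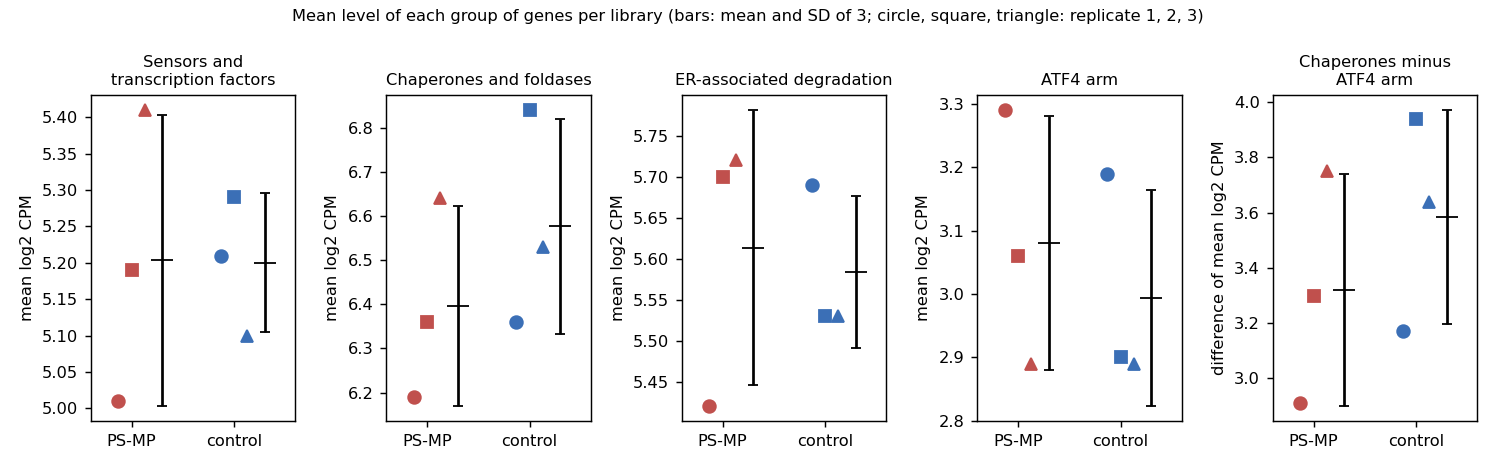
Mean log2 CPM of the genes of each role in each library (the vertical axes differ and do not start at 0), and the chaperone level minus that of the ATF4 arm; bars are the mean and SD of 3 libraries. The diets overlap in every panel, and replicate 1 of each diet is lowest for the chaperones and highest for the ATF4 arm.

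Further genes of the same pathways were read from lists drawn up by function. Of 92 genes, 91 were matched in the files and 90 tested. Of these 0 passed over all genes, 2 were lower and 0 higher at an unadjusted p under 0.05 (2.58% and 2.8% of all genes tested), and 9 were lower and 0 higher without overlap of the diets (4.99% and 6.24% of all genes tested). Their median log2 fold change was -0.081, with 65 of 90 below zero; with library size as the only scaling 15 of 90 were (median 0.129), where the median of all genes was 0.232. Without PS-MP replicate 3, 4 of 91 further genes were lower and 2 higher at an unadjusted p under 0.05, against 3.83% and 2.96% of all genes in that fit.

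Genes of ER folding and entry had 20 of 28 values below zero (median log2 fold change -0.145), and 5 of them were lower and 0 higher without overlap, where all genes tested had 4.99% and 6.24%. Only 9 of the 28 were below zero with library size as the only scaling (median 0.061), where the median of all genes was 0.232. Sec61b, a subunit of the channel through which proteins enter the ER, had 23.1, 29.6 and 26.6 CPM with PS-MP, against 31.7, 31.7 and 36.3 CPM in control (log2 fold change -0.33, SE 0.14, edgeR adjusted p = 0.923). Spcs2, of the signal peptidase, had -0.27 and Ssr1, of the translocon-associated complex, -0.23, while Pdia5 (0.19), Txndc11 (0.16) and Dnajc1 (0.11) lay above zero. P4hb, the main disulfide isomerase, had 1030, 826 and 929 CPM with PS-MP, against 1248, 900 and 1111 CPM in control (log2 fold change -0.23). Ero1b, an oxidase that serves these isomerases, stood at -0.33 (SE 0.19).

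Further degradation genes had 14 of 15 values below zero (median log2 fold change -0.143). Edem2, a mannosidase of glycoprotein removal, had 33.2, 35.9 and 37.8 CPM with PS-MP, against 44.6, 40.3 and 43.3 CPM in control, without overlap (log2 fold change -0.26, SE 0.12, edgeR adjusted p = 0.923). Ube2g2, a ubiquitin-conjugating enzyme, had -0.31 and Derl2 -0.17. With library size as the only scaling, 3 of the 15 were below zero (median 0.066), where the median of all genes was 0.232.

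Kinases of eIF2alpha and initiation factor genes had the narrowest span of log2 fold changes among the further lists. All 12 intervals lay inside 2-fold, and the log2 fold changes ran from -0.16 to 0.10. The double-stranded RNA kinase gene Eif2ak2 had 0.06, the amino acid sensor gene Eif2ak4 0.04 and the exchange factor gene Eif2b3 0.10, while Eif2b4 had -0.16, Eif2s2 -0.09 and Eif2b1 -0.08.

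Further ATF4 targets had 13 of 24 values below zero (median log2 fold change -0.018). Gdf15, a circulating stress hormone, had 4.59, 3 and 5.15 CPM with PS-MP, against 6.32, 8.08 and 6.47 CPM in control. The diets did not overlap, and the log2 fold change was -0.71 (SE 0.25, interval -1.32 to -0.10, edgeR unadjusted p = 0.0279, adjusted p = 0.896). Atf3, a stress-induced factor, had 1.1, 0.566 and 0.712 CPM with PS-MP, against 0.551, 0.624 and 0.454 CPM in control (log2 fold change 0.55, SE 0.34). Fgf21, a hepatic stress hormone, had 0.11 (interval -1.61 to 1.82), Slc38a2, an amino acid carrier, 0.31, and Mthfd2, of one-carbon metabolism, 0.34. Cars1, listed as Cars in the files, had -0.20 and Slc7a5 -0.17.

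Among membrane-bound factors related to ATF6 and the proteins that process them or act with them, 9 of 11 values were below zero. Of all genes tested, 47.2% were. The count was 5 of 11 without control replicate 1 (median log2 fold change 0.018) and 6 of 11 without PS-MP replicate 2. It was 2 of 11 with library size as the only scaling (median 0.16), where the median of all genes was 0.232. Creb3l3, a factor of the liver that is cut like ATF6 and governs lipid genes, had 9.07, 8.82 and 9.90 CPM with PS-MP, against 289, 12.4 and 293 CPM in control. PS-MP libraries lay below all controls, but control replicate 2 was close to them and far from the other controls (log2 fold change -4.42, SE 1.06, edgeR unadjusted p = 0.00477, adjusted p = 0.767). Mbtps1, the protease that makes the first cut in ATF6, had 48.6, 50.2 and 52.1 CPM with PS-MP, against 61, 53 and 52.8 CPM in control (log2 fold change -0.14). Nfyb, a subunit of the NF-Y factor that binds the CCAAT part of ERSE, had -0.88 (SE 0.52), and the ATF6 relatives Creb3l1 and Creb3l2 had 0.09 and 0.17.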

How the data were processed

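Per the file values and the labels, the deposited files hold whole-number read counts per gene, made by the authors and not normalised. Per the submitters' processing notes, bcl2fastq and the build GRCm39 were used; aligner, counter, annotation and strand setting were not given in the sources used here. Rows of 67 repeated symbols, none of them among the 35 genes, were added up. Genes of low count were removed with filterByExpr of edgeR 4.0.16 (R 4.3.3), which left 17662; counts were TMM scaled, and diets were compared with glmQLFit and glmQLFTest, diet being the one term, with Benjamini and Hochberg adjustment over all genes. Intervals use the standard error and the moderated degrees of freedom, 6.63. Mean levels use log2 CPM with a prior count of 2. DESeq2 1.42.0 and limma 3.58.1 (voom) were alternatives, with other scalings, filters, a replicate block and each library left out. The test was tried beforehand on simulated counts with known changes. The 35 genes and the lists were chosen with earlier results of these data known. All 35 are described; of each further list, the 3 genes of smallest p in each direction are named, with Atf3, Fgf21, Gdf15, Creb3l3, P4hb and Ero1b; other names were chosen after their values were seen. One gene that this rule names is not reported here. Depth is given with the report; SDs and intervals cover the spread between libraries.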

Additional observations from a re-analysis of the deposited data

How the results depend on the processing

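The count of 0 of the 35 genes past an adjusted p of 0.05 held in every setting tried, with an adjusted p of 0.10 too, and the smallest adjusted p of any of them in any setting was 0.502. Genes called over all 17662 were 2, and 187 with DESeq2, 1 with limma-voom and 0 with the replicate number as a block; with a library left out they were 0 to 4, of 18172 to 18467 genes tested. Of the 35 genes, 0 had an unadjusted p under 0.05, 1 with library size only, and 0 to 5 with a library left out. The diets did not overlap for 2 of the 35, 4 with library size only, 1 with upper quartile scaling, 1 with the filter of 1 CPM in 3 libraries, and 3 to 12 with a library left out. In the main fit 5.38% of all genes had an edgeR unadjusted p under 0.05, and 11.2% did not overlap. Such shares were not computed for library size only, upper quartile scaling or that filter. The changed counts under them therefore cannot be read as particular to the 35 genes. With library size only, the median log2 fold change was 0.206 for sensors, 0.0471 for chaperones, 0.196 for degradation genes and 0.255 for the ATF4 arm, where all genes had 0.232. With a library left out, these medians ranged from -0.112 to 0.087, -0.332 to -0.0255, -0.0427 to 0.0315 and -0.0436 to 0.242, and the chaperone level minus that of the ATF4 arm from -0.479 to -0.057. Further pathway genes at an unadjusted p under 0.05 were 2, 4 with library size only, 1 with the block and 1 to 6 with a library left out. For library size only and the block, the share of all genes was likewise not computed. The cause of these shifts was not tested. Leaving Ppp1r15b out of the ATF4 arm, chosen after seeing the data, gave a median of 0.0241.

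Whether replicate numbers pair the libraries was left undecided. Deviations from the diet means correlated across genes by 0.108, 0.139 and -0.128 for numbers 1, 2 and 3. For unlike numbers the correlations ran from -0.185 to 0.097. With 3 libraries a diet, such values cannot show whether a batch is shared. With the replicate block, 14 of 14 chaperone genes stayed below zero and 0 of the 35 passed (smallest adjusted p = 0.868). With 3 libraries a diet, a count of 0 genes passed does not show that the diets were alike; the intervals give the sizes that remain possible, and they are widest for genes of few counts or wide spread, such as Derl3 and Ddit3.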
